A study of Mus musculus with 4 samples.

Results

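Interferon-stimulated genes are the genes that cells switch on when they sense an interferon, and their levels are described here in cell classes of lung tumours from mice. A list of 44 was chosen by name and matched to the symbol column of the count tables. Of these, 42 had a row among the 32289 features of the tables, and Mx1 and Mx2 were not analysed here. The 42 genes are compared below between the libraries labelled tamoxifen and the libraries labelled ethanol, called vehicle-labelled in this text. The comparison covers 7 non-epithelial cell classes and the epithelial cells and their states.

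Type I and type III interferons bind their receptors and drive transcription factors, IRF9 and STAT2 among them, into the nucleus, where they bind the interferon-stimulated response element, a short DNA motif in front of many of these genes. Interferon gamma acts mainly through a different motif, the gamma-activated site. The products include viral RNA sensors, the ubiquitin-like modifier ISG15, enzymes that degrade or tag viral RNA, and large GTPases that attack the vacuoles of intracellular parasites, and the transcription factor IRF7 among them amplifies further interferon production. In tumours the same genes serve as a readout of interferon in the tissue, in cancer cells and immune cells alike.

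Single-cell RNA was measured in 4 libraries with 10x Genomics 3′ chemistry, which counts unique molecular identifiers (UMIs, 1 per captured transcript end) for each cell barcode. All groups shared 1 genotype: p53frt, a p53 allele that Flp recombinase deletes; Rosa-FSF-CreERT2, a tamoxifen-dependent Cre that Flp switches on; and Hnf4aflox, which Cre deletes. Hnf4a encodes a transcription factor of gut and liver identity. All tumours were started by an adenovirus in which the surfactant protein C promoter, active in alveolar type II cells, drives FlpO. One arm was labelled tamoxifen and the other ethanol, which is called vehicle here. Treatment came 10 weeks after infection and collection 2 weeks later. From each arm, 1 library held dissociated tumour cells before depletion and 1 held cells after magnetic removal of CD45-positive (immune) and CD31-positive (endothelial) cells, both frozen, thawed and sorted as live single cells. The ages of the mice, and how many animals or tumours went into a suspension, are not given in the sources used here.

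There was 1 library in each combination, so no difference below has a replicate check, and differences between the arms cannot be told apart from differences between these libraries. The pre-depletion and post-depletion libraries of an arm came from the same material and do not replicate each other. Intervals are exact and cover counting error only, since cells of 1 suspension are not independent animals. The 4 libraries kept 6111 to 7358 cells each, with medians of 9302 to 17733 UMIs per cell, and any pair of libraries shared 10 to 18 cell barcodes. Hnf4a itself was counted at 48.2 and 47.9 CPM (UMIs of a gene scaled to the same total in every class and library) in epithelial cells of the vehicle-labelled libraries before and after depletion, while the tamoxifen-labelled ones gave 81.3 and 78.9 CPM. The targeted gene was therefore not lower in the tamoxifen-labelled libraries. Counts from the 3′ end do not show which exons a transcript carries, so directions are given for the libraries as labelled. Cell classes were named from clusters by marker genes, and the clustering left out the 42 genes. The 8 epithelial markers summed to between 69681 and 79500 CPM in the epithelial-like cells of the 4 libraries, none of them at 0.

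Many of the promoters hold the response element motif. RefSeq promoter windows (build GRCm38.p6, 250 bases before to 50 after the transcript start) matched 32 of the 42 genes; Dhx58, Ifi27, Ifi27l2a, Ifi27l2b, Iigp1, Oas2, Parp14, Rtp4, Usp18 and Zbp1 had no entry. The core of the interferon-stimulated response element, searched as GAAA, any 2 bases and GAAA again, on both strands with overlaps allowed, was found in 20 of the 32 (62.5%), against 3.99% of the 27025 genes with a window. The gamma-activated site, searched as TTC, any 3 bases and GAA, which reads the same on both strands, was found in 7 of the 32 (21.9%), against 9.55% of all genes. These are matches of letters and not measured binding. The promoters of 4 genes are shown because the results below turn on how differently these genes moved: Isg15, the gene that was higher in the most cell classes; Irf7, higher in several classes although its window holds no match; Ifit1, a gene often used as an interferon readout; and Gbp2, which has a match and passed the size rule in no class. Each is written from 5′ to 3′ on the gene's strand, and capitals mark matches to the response element core.
Isg15, chr4:156200769-156201068, minus strand: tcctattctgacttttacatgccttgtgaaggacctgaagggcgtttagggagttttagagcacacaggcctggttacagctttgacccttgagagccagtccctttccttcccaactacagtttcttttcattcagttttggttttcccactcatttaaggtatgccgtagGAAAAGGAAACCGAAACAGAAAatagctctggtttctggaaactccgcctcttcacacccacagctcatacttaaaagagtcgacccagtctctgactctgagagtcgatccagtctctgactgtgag
Irf7, chr7:141266375-141266674, minus strand: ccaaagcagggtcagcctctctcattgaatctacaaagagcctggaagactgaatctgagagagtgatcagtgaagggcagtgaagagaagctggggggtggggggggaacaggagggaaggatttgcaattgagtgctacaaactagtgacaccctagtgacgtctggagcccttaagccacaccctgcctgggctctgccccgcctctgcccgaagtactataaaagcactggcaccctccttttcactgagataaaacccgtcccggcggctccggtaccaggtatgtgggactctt
Ifit1, chr19:34640639-34640938, plus strand: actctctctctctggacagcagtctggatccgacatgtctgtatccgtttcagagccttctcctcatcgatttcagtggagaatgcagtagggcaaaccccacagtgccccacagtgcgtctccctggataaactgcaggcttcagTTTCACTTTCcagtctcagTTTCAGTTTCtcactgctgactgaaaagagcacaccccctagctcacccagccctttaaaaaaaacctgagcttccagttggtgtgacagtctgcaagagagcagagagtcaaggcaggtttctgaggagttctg
Gbp2, chr3:142620413-142620712, plus strand: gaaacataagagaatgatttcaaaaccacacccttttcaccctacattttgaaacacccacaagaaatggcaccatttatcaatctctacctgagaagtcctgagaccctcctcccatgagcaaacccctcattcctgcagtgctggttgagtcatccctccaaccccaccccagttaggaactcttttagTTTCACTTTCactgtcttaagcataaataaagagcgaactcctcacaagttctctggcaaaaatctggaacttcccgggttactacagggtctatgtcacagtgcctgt

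The 3 matches in front of Isg15 overlap, so they read as 1 uninterrupted block of capitals. The window of Ifit1 holds 2 separate matches, and that of Gbp2 holds 1. No match to the core lies within the Irf7 window, nor in those of Cmpk2, Herc6, Ifi35, Ifi44, Ifit2, Irf9, Lgals3bp, Oasl1, Oasl2, Phf11d and Xaf1. Of the 10 genes that passed the size rule in some non-epithelial class, Isg15, Ifit1 and Ddx60 hold a match, Irf7 and Oasl2 do not, and the other 5 had no window.

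Across the non-epithelial classes, the interferon-stimulated genes as a set were higher in the tamoxifen-labelled pre-depletion library, but few single genes passed the size rule. A gene was called higher or lower in a class when its mean of both libraries was at least 10 CPM, it had at least 50 UMIs, and its log2 ratio of CPM plus a pseudocount of 1 CPM reached 2-fold. Only classes with at least 100 cells in each library were compared, and 7 qualified: neutrophil-like, dendritic cell-like, monocyte or macrophage-like, T cell-like, B cell-like, endothelial-like and alveolar macrophage-like. The filter takes the mean of both libraries, so a gene could pass through its level in 1 library alone. A higher call of a gene under 10 CPM with vehicle, in a class or a state, is therefore a description and no separate check. All genes tested passed the same filter. Isg15 was called higher in 5 of the 7 and Ifi27l2a in 4, and no other gene was called in 4 or more. No interferon-stimulated gene was called lower in any of the 7.

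The neutrophil-like cells, 674 and 514 in the vehicle-labelled and tamoxifen-labelled libraries, differed most. The 42 genes summed to 958 CPM with vehicle and to 1985 CPM with tamoxifen, a log2 ratio of 1.05 (95% interval 0.98 to 1.13). Of 28 genes that passed the filter, 9 were called higher: Isg15, Ifit1, Ifi27l2a, Oas2, Oasl2, Zbp1, Rtp4, Ddx60 and Iigp1. Over all 6755 genes tested in this class, 1.44% were called higher and 1.08% lower, that is 97 and 73 genes. Scaling by TMM instead of the UMI total gave 60 and 98, and 7 interferon-stimulated genes called higher. The median log2 ratio was 0.68 over the 42 genes and 0.05 over all genes tested.

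In the monocyte or macrophage-like cells (1018 and 688), 6 of 26 genes were called higher, namely Isg15, Ifi27l2a, Oasl2, Irf7, Rtp4 and Iigp1, against 0.253% of all genes tested higher and 0.266% lower. Their summed level went from 1088 to 1648 CPM, a log2 ratio of 0.60 (0.57 to 0.63). The dendritic cell-like cells (555 and 335) had 3 of 23 called higher, Isg15, Ifi27l2a and Irf7, beside 0.914% of all genes higher and 0.313% lower. There the sum went from 892 to 1381 CPM, a log2 ratio of 0.63 (0.59 to 0.67). The median log2 ratio over the 42 genes was 0.59 in the monocyte or macrophage-like and 0.66 in the dendritic cell-like cells, and over all genes tested -0.06 and -0.05. Markers of other cell types also differed in the dendritic cell-like cells: the 7 neutrophil markers summed to 87.0 and 229 CPM, with 1 at 0 in each library, and the 8 alveolar type 2 markers to 860 and 2124 CPM with none at 0. Their part in the result was not tested.

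In T cell-like cells (1167 and 711), Isg15, Irf7 and Rtp4 were called higher among 25 tested, against 0.347% of all genes higher and 0.611% lower (29 and 51 genes, or 41 and 43 under TMM, where 4 of the list were called), and the summed level went from 1143 to 1672 CPM (log2 ratio 0.55, 0.51 to 0.59). In B cell-like cells (425 and 208), Ifi27l2a and Zbp1 were called higher among 16 tested, against 0.864% of all genes higher and 2.59% lower (64 and 192 genes, or 78 and 144 under TMM), and the sum went from 606 to 845 CPM (0.48, 0.36 to 0.59). Ifi27l2a alone made up 56.8% of the summed difference in the B cell-like cells and 39.7% in the T cell-like cells. The 7 neutrophil markers summed to 1757 CPM in the B cell-like cells of the vehicle-labelled library, with none at 0, and to 235 CPM in those of the tamoxifen-labelled one, with 1 at 0. In the T cell-like cells the 8 alveolar macrophage markers summed to 138 and 308 CPM, with none at 0. The part of these markers in the results was not tested.

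Endothelial-like cells started from the highest summed level of the 7 classes, 1903 CPM with vehicle, and reached 2292 CPM with tamoxifen (log2 ratio 0.27, 0.20 to 0.33). Isg15 was the only gene called among 30 tested, against 0.75% of all genes higher and 1.61% lower. In the same endothelial-like cells the 8 epithelial markers summed to 269 CPM in the vehicle-labelled and 3663 CPM in the tamoxifen-labelled pre-depletion library, and their part in the result was not tested. Alveolar macrophage-like cells, 1637 and 2117 of them, moved least: 838 and 959 CPM summed (0.19, 0.16 to 0.22), with 0 of 20 genes called higher, against 0.123% of all genes higher and 0.724% lower. Isg15, present at 9.25 and 13.2 CPM there, was 1.43-fold higher.

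**Figure D1:**
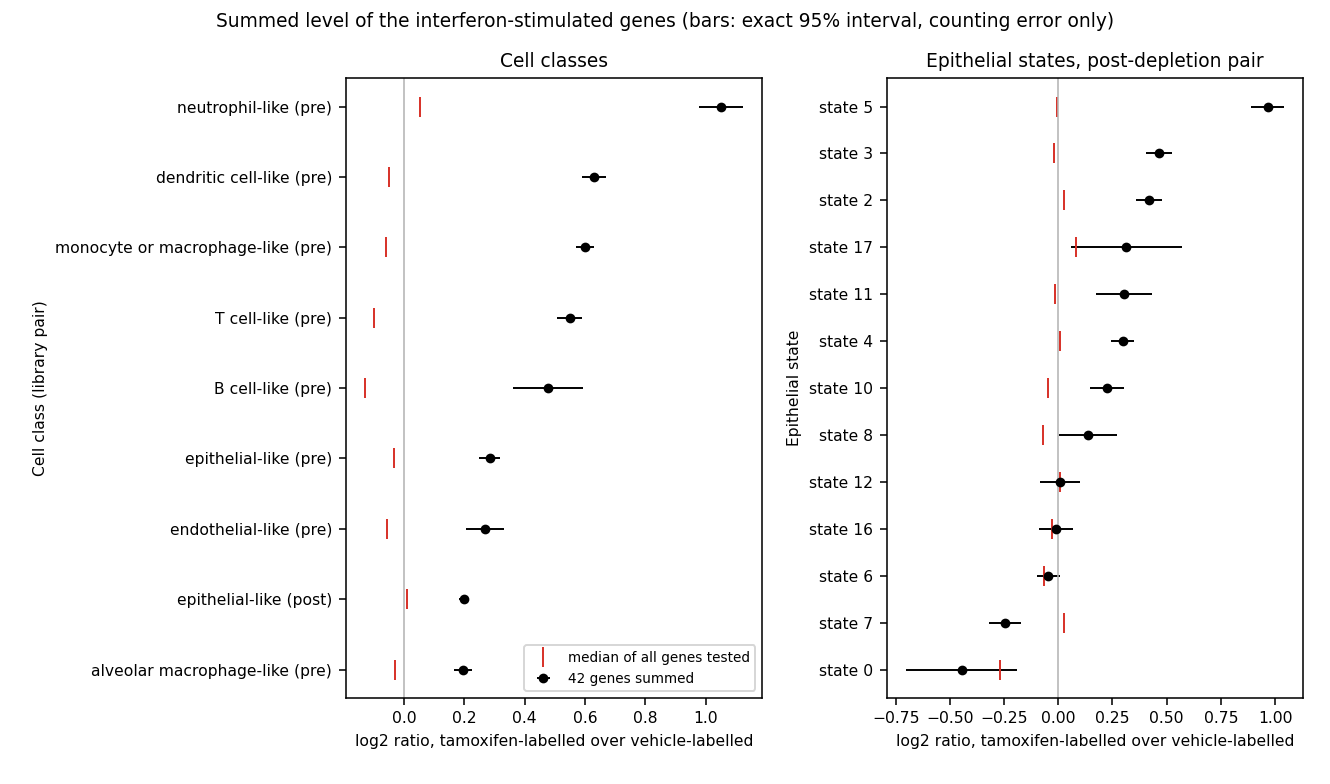
Summed level of the 42 genes, as the log2 ratio of the tamoxifen-labelled over the vehicle-labelled library (x axis), for the cell classes (left) and the 13 epithelial states with enough cells (right). Points are the summed genes with exact 95% counting intervals and red ticks the median of all genes tested; the neutrophil-like class lies highest at 1.05, and state 7 (-0.24) and state 0 (-0.44) lie below 0.

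The difference was also present inside the clusters that make up a class. The 2 neutrophil-like clusters had summed log2 ratios of 0.94 and 1.37, and the 3 T cell-like clusters 0.50, 0.55 and 0.52. Among monocyte or macrophage-like cells, the cluster led by complement genes (C1qa, C1qb, C1qc) gave 0.55 and the one led by F13a1, Adgre4 and Ifitm6 gave 0.95. Alveolar macrophage-like cells split by proliferation: the cluster led by Top2a and Mki67, genes of dividing cells, gave 0.53, while the other 2 compared gave 0.29 and 0.13.

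**Figure D2:**
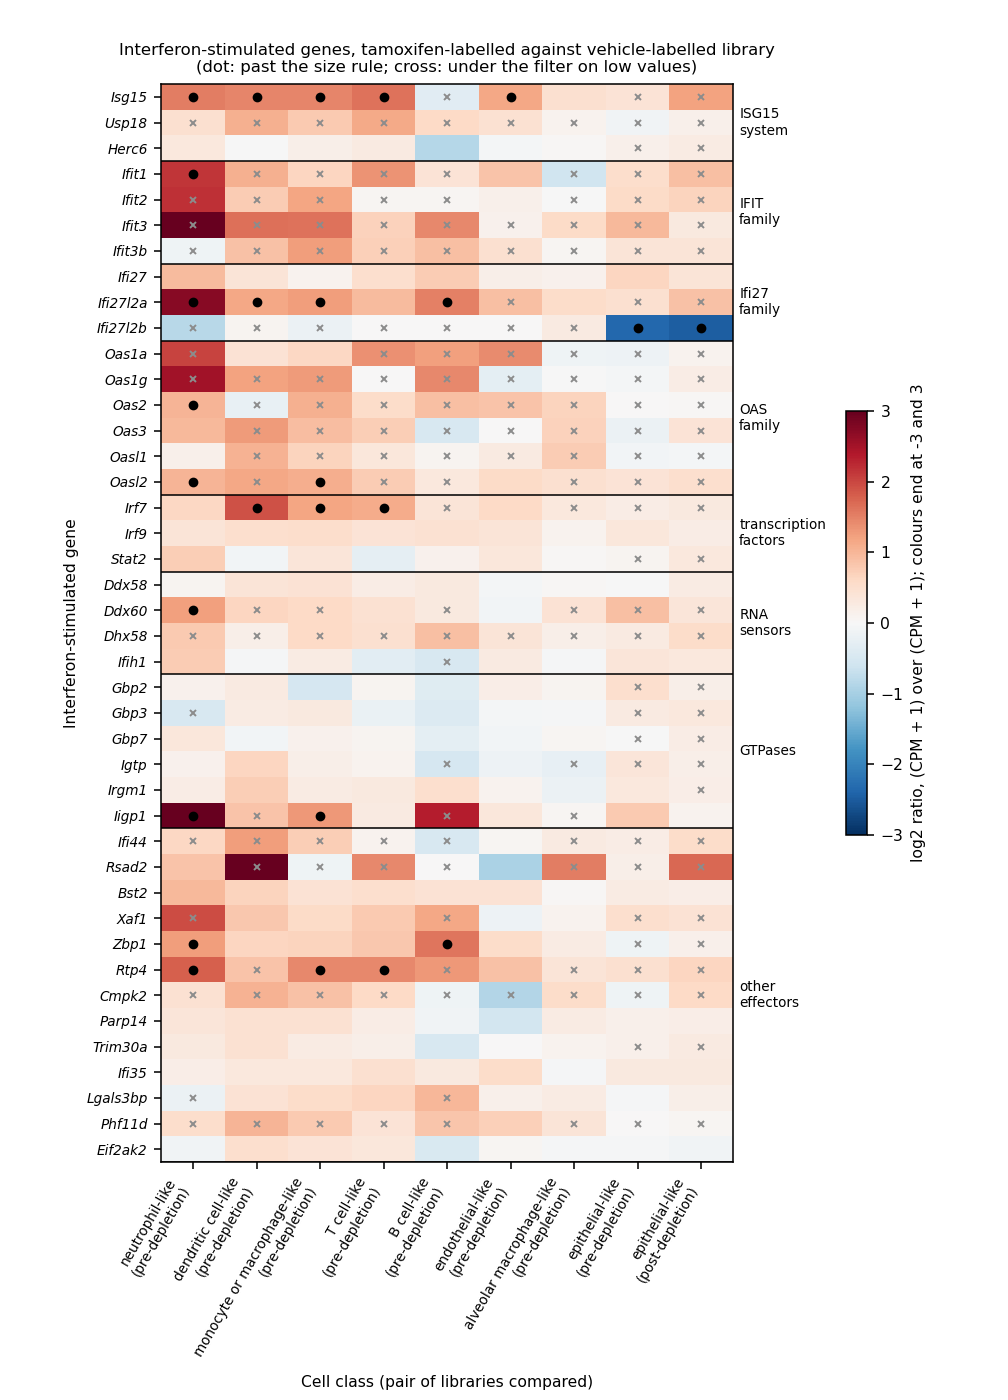
Each of the 42 genes (rows, grouped by role) in each cell class (columns), coloured by the log2 ratio of the tamoxifen-labelled over the vehicle-labelled library, with dots for genes past the size rule and crosses for genes under the filter on low values. Isg15 and Ifi27l2a hold the longest rows of dots, the GTPase rows other than Iigp1 hold none, and Ifi27l2b in the epithelial-like columns is the only dark blue.

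Isg15 encodes a ubiquitin-like protein that is conjugated to other proteins and also secreted. It stood at 16.0 CPM in T cell-like cells of the vehicle-labelled library and at 51.2 CPM in the tamoxifen-labelled one. In neutrophil-like cells the levels were 90.9 and 265 CPM, in dendritic cell-like cells 19.1 and 54.8 CPM, in monocyte or macrophage-like cells 18.8 and 53.6 CPM, and in endothelial-like cells 74.8 and 169 CPM. The 4 immune classes among these lay close together in fold, at 3.20, 2.91, 2.86 and 2.84, and the endothelial-like cells at 2.26. The exact 95% interval of the log2 ratio, computed without a pseudocount, ran from 1.37 to 1.99 in T cell-like cells and from 0.90 to 1.46 in endothelial-like cells. B cell-like cells were the exception, with 17 UMIs (6.75 CPM) and 6 UMIs (5.15 CPM), a log2 ratio of -0.33 whose interval of -2.02 to 1.02 spans 0.

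A larger share of cells carried Isg15 in the tamoxifen-labelled library. With every cell thinned to 2000 UMIs, 31 of 1126 T cell-like cells (2.75%, 1.88 to 3.89%) and 50 of 666 (7.51%, 5.62 to 9.78%) had an Isg15 UMI in the vehicle-labelled and tamoxifen-labelled libraries. Neutrophil-like cells went from 10.4% (8.13 to 13.1%) to 18.1% (14.6 to 22.1%). The intervals did not overlap in these classes, while those of monocyte or macrophage-like cells did, at 3.10% (2.12 to 4.37%) and 5.73% (4.10 to 7.75%). B cell-like cells, the class with the lowest Isg15 in the tamoxifen-labelled library, gave 0.733% and 1.05% at median depths of 4897 and 4547 UMIs, against depths of 5807 and 5995 UMIs for the T cell-like cells. Without thinning, the T cell-like shares were 7.63% and 15.2% and the neutrophil-like shares 14.1% and 20.6%.

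Neither of the genes listed here that act on ISG15 was called. Usp18, the protease that removes ISG15 and also blocks the interferon receptor, was under the filter in all 7 classes, and its highest ratio was in T cell-like cells, where 2.73 and 7.15 CPM gave 1.13. Herc6, the mouse ligase that attaches ISG15, was tested in all 7 and called in none, with a median log2 ratio of 0.04.

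Ifi27l2a, which encodes a small membrane protein of the Ifi27 family, contributed most to the summed difference in 6 of the 7 classes. In neutrophil-like cells it went from 51.1 to 342 CPM, 6.69-fold (log2 interval 2.47 to 3.02), and from 44 of 674 to 124 of 514 cells with a UMI. The levels were 71.5 and 207 CPM in B cell-like, 108 and 242 CPM in dendritic cell-like, and 156 and 376 CPM in monocyte or macrophage-like cells, all past 2-fold. T cell-like cells, with the highest level of all, went from 225 to 435 CPM, 1.93-fold, just under the rule. Alveolar macrophage-like cells held 130 and 191 CPM. Endothelial-like cells held 6.93 and 13.7 CPM, too few UMIs to be tested. The endothelial-like class was the only one of the 7 not made of immune cells, so the calls cannot set immune cells against others. In fibroblast-like cells, given further below, the ratio of this gene was above 0 in both pairs of libraries.

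**Figure D3:**
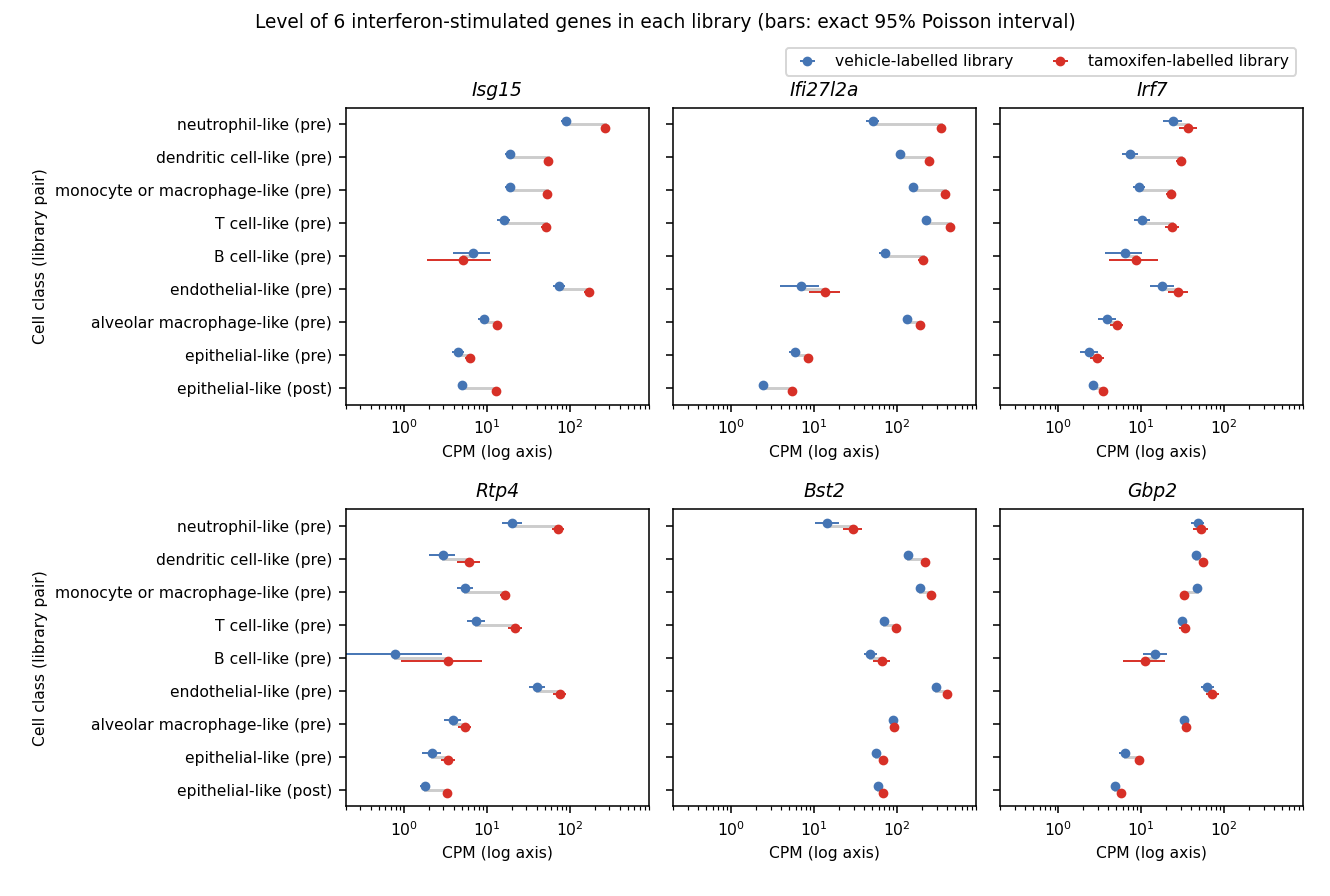
Level in CPM (x axis, log scale) of 6 interferon-stimulated genes in the vehicle-labelled (blue) and tamoxifen-labelled (red) library of each cell class, with exact 95% Poisson bars. Isg15 and Ifi27l2a separate the 2 libraries in most classes, while Gbp2 lies at nearly the same level, or lower, as in monocyte or macrophage-like cells with 46.7 and 32.9 CPM.

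Ifi27, which lies beside Ifi27l2a and Ifi27l2b on chromosome 12 (103434211 to 103440239, GRCm38), was tested in all 7 classes and called in none, with log2 ratios of 0.10 to 0.94. Ifi27l2b reached at most 0.781 CPM in any of these classes and could not be tested there. Ifi27l2a and Ifi27l2b are close copies, and reads could be split between them by the counting. Their sum was called higher in the same 4 classes as Ifi27l2a alone.

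Of the transcription factors on the list only Irf7 was called. Irf7, whose product amplifies interferon genes, went from 7.33 to 30.3 CPM in dendritic cell-like cells, from 9.51 to 22.9 CPM in monocyte or macrophage-like cells, and from 10.3 to 23.5 CPM in T cell-like cells, and was called in these 3 classes. In the dendritic cell-like cells, 5 cells held 67.1% of the Irf7 UMIs of the tamoxifen-labelled library, and without the 5 top cells of each library the log2 ratio fell from 1.91 to 1.05 and the gene was under the filter. Irf9 and Stat2, whose products act at the response element, were each tested in all 7 classes and called in none. Their median log2 ratios were 0.40 and 0.13.

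Genes of the 2′-5′ oligoadenylate synthetase (OAS) family, some of whose products activate the RNA-degrading RNase L, were mostly too low to test. Oasl2, the most abundant of the 6 in neutrophil-like cells, was an exception. It stood at 153 and 311 CPM in neutrophil-like cells and at 7.66 and 17.6 CPM in monocyte or macrophage-like cells, and both were called. In neutrophil-like cells 206 of 674 and 256 of 514 cells carried it, and the 5 top cells held only 10.5% of its UMIs in the tamoxifen-labelled library. Oas2 was called in neutrophil-like cells from 7.81 and 16.9 CPM, and Oas1a, Oas3 and Oasl1 were called in none of the 7 classes. Oas1a was called higher within the monocyte or macrophage-like cluster with a summed log2 ratio of 0.95. Oas1a and Oas1g are another pair of close copies, and their sum was called in none of the 7 classes. In neutrophil-like cells that sum was 1.95 and 15.8 CPM, under the filter.

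The IFIT genes, which bind viral RNA lacking host cap marks, were under the filter in nearly every class. Ifit1 was called in neutrophil-like cells, at 8.20 and 39.5 CPM, but only 8 and 11 cells carried it and 5 of them held 88.0% of its UMIs with tamoxifen. Ifit3 reached a log2 ratio of 3.12 in the same cells from 0.390 and 11.1 CPM, and could not be tested in any class. Summed with its near-identical copy Ifit3b it stood at 5.07 and 15.3 CPM in neutrophil-like cells.

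Among the other effectors, Rtp4, a chaperone-like protein that restrains interferon signalling and some viruses, and Zbp1, a sensor of Z-form nucleic acid, stood out. Rtp4 went from 7.48 to 21.8 CPM in T cell-like, from 5.49 to 16.6 CPM in monocyte or macrophage-like and from 20.3 to 72.2 CPM in neutrophil-like cells. Zbp1 went from 13.5 to 42.9 CPM in B cell-like and from 8.20 to 21.1 CPM in neutrophil-like cells. The abundant Bst2, which tethers budding viruses to the cell surface, had ratios above 0 in all 7 classes (0.04 to 0.98) and was called in none. Xaf1, Ifi35, Parp14, Trim30a and Eif2ak2 were each tested in 5 or more classes and called in none. Lgals3bp was tested in 5 classes, Rsad2 in 2 and Ifit2, Ifi44 and Phf11d in 1 each, and none was called. Cmpk2, Dhx58, Ifit3b and Oas1g were under the filter in all 7.

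Among the GTPases, only Iigp1 was called in any of the 7 whole classes. Gbp2 was called higher within the neutrophil-like cluster with a summed log2 ratio of 1.37, and some epithelial states, given below, called other GTPases. Gbp2, Gbp3, Gbp7, Igtp and Irgm1, proteins that attack pathogen vacuoles and are strongly induced by interferon gamma, gave 32 tested comparisons over the 7 classes and 0 calls, with median log2 ratios of 0.08, -0.06, 0.05, 0.10 and 0.24. Gbp2 stood at 31.3 and 33.3 CPM in T cell-like and at 48.0 and 52.2 CPM in neutrophil-like cells. Iigp1 was called in neutrophil-like cells (1.17 and 25.8 CPM) and in monocyte or macrophage-like cells (5.87 and 15.9 CPM). In the neutrophil-like cells its UMIs came from 2 and 5 cells. Summed, the 6 GTPases gave log2 ratios between -0.02 and 0.39 in the 7 classes, whereas the 4 IFIT genes gave -0.07 to 2.15 and the 3 Ifi27 family genes 0.25 to 2.20. The groups by role were drawn up after these values had been seen.

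Few RNA sensors were called. Ddx58 (RIG-I) and Ifih1 (MDA5), which recognise viral RNA, were tested in 7 and 6 classes and called in none, with median log2 ratios of 0.23 and -0.02. Ddx60, a helicase that assists them, was called in neutrophil-like cells from 18.0 and 43.8 CPM.

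In other lists of the pathway, no gene was called higher in 4 or more of the 7 classes. Of the interferon genes, Ifnb1 had 2 UMIs in all, both in the vehicle-labelled pre-depletion library. Each of the 12 numbered alpha genes (Ifna) had at most 1 UMI in any library. Ifnab had 3 UMIs before and 6 after depletion with vehicle, and 1 and 7 with tamoxifen. Ifnk was counted more often, at 80 and 73 UMIs with vehicle and 77 and 53 with tamoxifen, in the same order. Ifng, the interferon gamma gene, had 1050 and 821 UMIs in the pre-depletion libraries, 888 and 575 of them in T cell-like cells, where the log2 ratio was 0.15. Cxcl10, a chemokine induced by interferons, was called lower in alveolar macrophage-like cells (49.8 and 21.0 CPM) and neutrophil-like cells (120 and 39.0 CPM). In the neutrophil-like cells Isg15 was called higher. B2m, the light chain of class I antigen presentation, Ifitm3, which blocks viral entry, and the transcription factor Irf1 were tested in 7 classes and called in none, with medians of 0.18, 0.46 and 0.02. Of 28 interferon gamma and antigen presentation genes, Cxcl9 was called higher in dendritic cell-like and neutrophil-like cells and no other in any class. There 20 and 17 of the 28 were tested, and 0.914% and 1.44% of all genes were higher. Besides Cxcl10, given above, Gbp5 was called lower in endothelial-like cells among 22 tested, where 1.61% of all genes were lower. Of 73 further interferon-stimulated genes, at most 3 were called higher in a class (Ifi205, Ifi211 and Phf11a among 47 tested in dendritic cell-like cells, where 0.914% of all genes were), and none in monocyte or macrophage-like cells. Ccl5 was called higher in B cell-like and T cell-like cells, where 0.864% and 0.347% of all genes were. Ifitm1 and Ifi208 were called higher in endothelial-like cells (0.75%) and Slfn5 in neutrophil-like cells (1.44%). As many as 3 of the 73 were called lower in a class. In B cell-like cells these were Ifitm1, Parp11 and Fgl2, in alveolar macrophage-like cells Ifitm1, Cxcl10 and Ccl5, and in neutrophil-like cells Cxcl10 and Ccl5. The shares of all genes lower were 2.59%, 0.724% and 1.08% in these classes. Ccl5 and Ifitm1 were thus called in opposite directions in different classes. Among 9 receptors and kinases, 11 sensors and adaptors and 8 negative regulators of the pathway, 0 were called higher in any class, while Jak2, a receptor kinase, was called lower in endothelial-like cells and Ifnlr1, a receptor chain for type III interferon, in neutrophil-like cells. Of 7 signal factors, Irf8 was called higher in neutrophil-like cells (7.81 and 20.04 CPM) and no other in any class. Among 13 NF-kB targets, genes of another inflammatory pathway, 0 were called higher in any class. In endothelial-like cells 6 of 12 tested were called lower (Il1b, Cxcl1, Cxcl2, Ccl3, Ccl4 and Birc3), against 1.61% of all genes. In B cell-like cells 4 of 11 were (Il1b, Cxcl2, Ccl3 and Ccl4), against 2.59%. In that class the summed neutrophil markers differed as given above. Of 13 tested, Tnfaip3 and Ccl2 were called lower in neutrophil-like cells (1.08% of all genes) and Ccl2 in alveolar macrophage-like cells (0.724%). In epithelial-like cells Plac8 was the only gene of the other lists called in both pairs the same way, lower at 37.7 and 3.34 CPM and at 48.0 and 3.10 CPM.

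In the epithelial-like cells no interferon-stimulated gene was called higher in either pair of libraries. The pre-depletion pair held 1030 and 1031 epithelial-like cells and the post-depletion pair 6069 and 6624. Of the genes that passed the filter, 0 of 12 and 0 of 11 were called higher, against 0.409% and 0.408% of all genes tested, and 1 was called lower in each pair, against 1.01% and 1.03%. The 42 genes still summed to more with tamoxifen: 406 and 494 CPM before depletion (log2 ratio 0.28, 0.25 to 0.32), and 431 and 495 CPM after it (0.20, 0.18 to 0.22). The median log2 ratio was 0.24 and 0.28 over the 42 genes, and -0.04 and 0.01 over all genes tested. The epithelial-like cells of the arms lay in different states, so these ratios compare different mixtures. Of the states described further below, state 19 held 4 and 847 cells of the vehicle-labelled and tamoxifen-labelled post-depletion libraries, state 21 held 10 and 471, and state 15 held 390 and 2. Between the libraries before and after depletion of the same arm, 0 of 10 tested genes (vehicle) and 0 of 11 (tamoxifen) were called in epithelial-like cells. All genes called higher after depletion made up 0.0784% and 0.0673%, and those lower 0.224% and 0.213%.

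Ifi27 had the largest positive difference of the 42 genes in both pairs. It stood at 100.3 and 158 CPM in the pre-depletion pair and at 128 and 167 CPM in the post-depletion pair, 1.57-fold and 1.31-fold, and made up 65.0% and 60.9% of the net summed difference. That net is lowered by Ifi27l2b, by 21.2 and 34.0 CPM, and of the positive differences alone, 113 and 99.9 CPM in sum, Ifi27 made up 50.8% and 39.1%. Bst2, at 56.3 and 67.3 CPM and then 59.7 and 68.2 CPM, made up 12.5% and 13.4% of the net. Lgals3bp, a secreted glycoprotein and the third most abundant of the genes here, stood at 32.1 and 31.1 CPM before depletion and at 30.1 and 34.0 CPM after it. Over all epithelial-like cells, Ifi27 and Bst2 were thus higher with tamoxifen in both pairs by less than the rule asks. The ratios of Lgals3bp over all these cells lay on either side of 0. Within the 13 states compared after depletion, Ifi27 had a median log2 ratio of 0.07 (-0.13 to 0.37), against 0.38 over all cells, with 9 states above 0. Bst2 had a median of 0.23 (-0.33 to 0.62) with 10 states above 0. Lgals3bp had a median of 0.36 (-0.15 to 0.79) with 12 above 0, against 0.17 over all cells.

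Ifi27l2b went the other way and was the only gene of the list called in both pairs. It was counted at 25.4 and 4.18 CPM before depletion and at 40.5 and 6.51 CPM after it, log2 ratios of -2.35 and -2.47. The number of cells with a UMI was 164 of 1030 and 78 of 1031 in the first pair, and 1355 of 6069 and 432 of 6624 in the second. Its neighbour and close copy Ifi27l2a was at 5.83 and 8.55 CPM, and at 2.45 and 5.37 CPM. The sum of the copies was also called lower in both pairs, with log2 ratios of -1.23 and -1.77. In both pairs, then, Ifi27l2b was lower with tamoxifen while Ifi27 and Ifi27l2a had ratios above 0.

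Isg15 in epithelial-like cells was too low to be called, with a mean below 10 CPM in both pairs. It stood at 4.50 and 6.25 CPM before depletion and at 5.03 and 12.99 CPM after it, the latter 2.58-fold. Few cells carried that difference. Epithelial-like cells with 10 or more Isg15 UMIs numbered 6 of 6069 (0.0989%, 0.0363 to 0.215%) in the vehicle-labelled and 19 of 6624 (0.287%, 0.173 to 0.448%) in the tamoxifen-labelled post-depletion library, and they held 12.2% and 52.9% of its Isg15 UMIs. In the pre-depletion libraries they numbered 2 of 1030 and 1 of 1031.

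Those rare cells carried many of the genes together. The 19 cells of the tamoxifen-labelled post-depletion library had a median of 24 of the 42 genes detected, and the other epithelial-like cells of that library a median of 4, at median depths of 17023 and 16490 UMIs. Without Isg15, the gene that picked them, the other 41 genes summed to 7488 CPM in the 19 cells and to 461 CPM in the others. Ifit1 was detected in 15 of the 19, Rsad2 (viperin, an antiviral enzyme) in 11, Irf7 in 14 and Rtp4 in 16. None of them had a UMI of Ptprc, the pan-leukocyte gene CD45. They were spread over 10 epithelial states. The 6 cells of the vehicle-labelled library had a median of 26 genes and 2911 CPM without Isg15. These cells were picked by Isg15, so their Isg15 level is no finding, and the levels of the other genes are a description.

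Over all epithelial-like cells, thinned to 2000 UMIs, the share with at least 2 UMIs of the 42 genes was 17.5% (15.1 to 20.05%) and 22.9% (20.3 to 25.6%) in the vehicle-labelled and tamoxifen-labelled pre-depletion libraries. After depletion it was 20.5% (19.4 to 21.5%) and 23.7% (22.7 to 24.7%). Without thinning the shares were 87.7% and 94.9%, and 88.0% and 89.2%. The corresponding thinned shares were 37.8% and 57.6% in neutrophil-like and 44.4% and 47.6% in alveolar macrophage-like cells.

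The epithelial-like cells fell into 22 states, and 13 had at least 50 cells in each post-depletion library. No gene was called higher in 7 or more of the 13. In state 5, led by Zbtb16, Hc, Cbr2 and Scd1, 6 of 18 genes were called higher (Isg15, Ifit1, Ifit2, Rsad2, Ifih1 and Iigp1; 0.219% of all genes). In state 3, led by Serpinb9, AW112010 and Cyp2b10, 4 of 23 were (Ifi27l2a, Gbp2, Igtp and Iigp1; 0.278%). State 2, led by Procr and Serpinb2, had Isg15 (0.463%), and state 4, led by Retnla, Lyz2 and Lyz1, had Ifi27l2a (0.146%). Isg15 was called in states 5 and 2, Iigp1 in states 5 and 3, and Ifi27l2a in states 3 and 4.

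The other 9 states called no gene higher. Their shares of all genes called higher were 1.68% in state 0, 0.27% in state 6, 0.963% in state 7, 1.22% in state 8, 1.43% in state 10, 2.23% in state 11, 2.69% in state 12, 0.595% in state 16 and 4.3% in state 17. Summed over the 42 genes, state 16, led by genes of dividing cells such as Ube2c and Cdc20, stood at 435 and 432 CPM, and state 12 at 407 and 410 CPM. State 7, led by Tff3 and Guca2a, went from 433 to 365 CPM (log2 ratio -0.24, -0.32 to -0.17) and state 0, whose cells were shallow, from 443 to 326 CPM. The median over all genes tested was 0.03 in state 7 and -0.27 in state 0. The summed rise was therefore not seen in every epithelial state.

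Ifi27l2b was the only gene of the list called lower in any of the 13 states. It passed the filter in 6 of them, states 0, 2, 6, 7, 12 and 16, and was called lower in all 6. The filter takes the mean of both libraries, so a state could pass through its vehicle-labelled level alone. The 6 of 6 is therefore no separate check. Over all 13 states, filter aside, the ratio was above 0 in 3 and its interval lay below 0 in 7. In state 8, under the filter, Ifi27l2b stood at 4.28 and 4.46 CPM (6 and 48 UMIs). In state 7, where it was most abundant, it went from 104 to 38.4 CPM, and in state 16 from 46.2 to 4.79 CPM. The fall seen over all epithelial-like cells was thus also present within these states. The shares of all genes called lower were 10.5% in state 0, 0.904% in state 2, 0.599% in state 6, 1.46% in state 7, 2.73% in state 12 and 1.19% in state 16. In the states without a lower call they were 0.205% in state 3, 0.132% in state 4, 0.18% in state 5, 2.56% in state 8, 2.05% in state 10, 1.83% in state 11 and 4.08% in state 17.

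The calls in single states rested on very few cells. In state 5, the 6 called genes together had 136 UMIs in 532 cells with vehicle and 946 UMIs in 353 cells with tamoxifen, and 5 cells held 90.1% of the latter. Without the 5 top cells of each library, the same genes stood at 20.5 and 22.7 CPM, against 23.6 and 224 CPM with them. Rsad2, at 59.5 CPM, came from 3 cells of 353, and Ifit1 and Ifit2 from 2 cells each. In state 2, Isg15 went from 2.99 to 48.3 CPM, and 5 cells held 94.6% of the UMIs. Leaving out, for each gene, its 5 top cells in each library left 0 of the 6 calls in state 5, 0 of 1 in states 2 and 4, and 2 of 4 in state 3, where Gbp2 and Iigp1 remained. Lgals3bp in state 8 was then called higher.

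The same omission in the non-epithelial classes left all 3 calls in T cell-like cells, 2 of 3 in dendritic cell-like, 1 of 1 in endothelial-like, 3 of 6 in monocyte or macrophage-like, 5 of 9 in neutrophil-like and 1 of 2 in B cell-like cells. Isg15 remained in all 5 of its classes and Ifi27l2a in all 4. The lost calls were of genes then under the filter, such as Zbp1 in B cell-like cells, still at 8.90 and 20.6 CPM with a log2 ratio of 1.13, except Irf7 in monocyte or macrophage-like cells, whose ratio became 0.99. The omission also added calls, Irf7 and Rtp4 in endothelial-like and Oas3 and Rsad2 in neutrophil-like cells, all higher, and 1 lower, Herc6 in B cell-like cells (log2 ratio -1.09). Over the calls, 5 cells held a median of 30.7% of the gene's UMIs in the tamoxifen-labelled library in the classes and 79.2% in the post-depletion states.

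**Figure D4:**
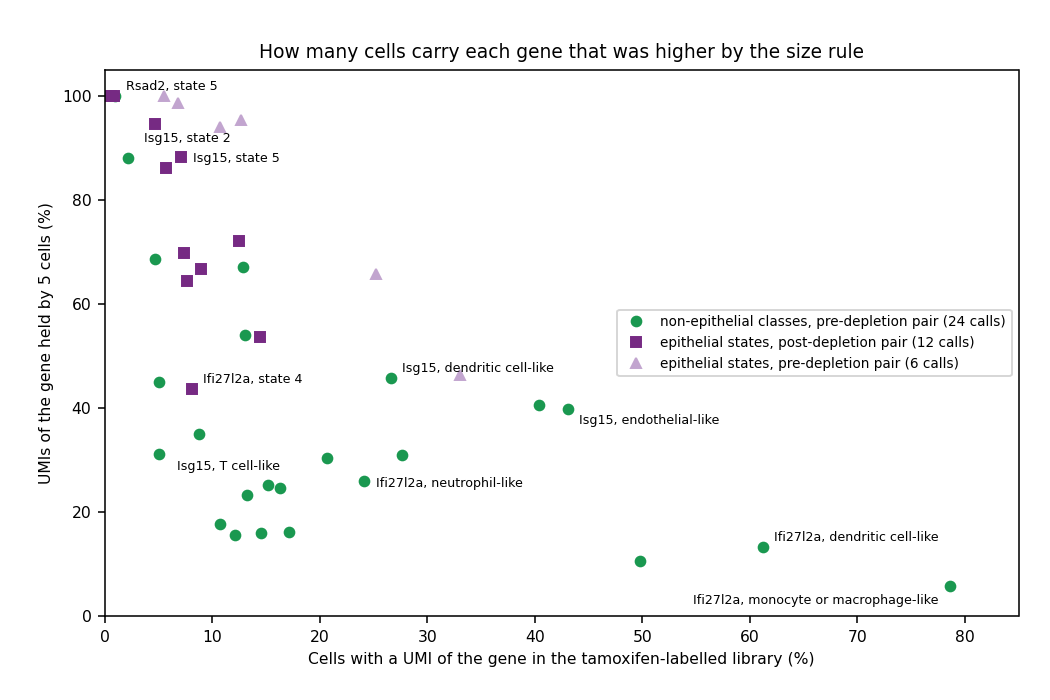
For every gene called higher in a non-epithelial class or an epithelial state, the share of cells with a UMI in the tamoxifen-labelled library (x axis, %) against the share of the gene's UMIs held by the 5 cells with the most (y axis, %). The calls in epithelial states gather at the upper left, where a few cells hold most UMIs, and most calls in non-epithelial classes lie below 50% on the y axis.

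The pre-depletion pair had 4 states with 50 or more cells in each library, states 2, 4, 5 and 6. State 3, with 90 and 47 cells, was not compared. Of the post-depletion calls in states 2, 4 and 5, that of Iigp1 in state 5 recurred and the others did not. The shares of all genes called higher were 1.34% in state 2, 0.659% in state 4, 0.127% in state 5 and 1.09% in state 6, and those called lower 3.17%, 0.308%, 0.521% and 1.79% in the same order. State 4 called Parp14, Gbp2, Igtp, Irgm1 and Iigp1 among 13 tested, with summed levels of 362 and 823 CPM, but 5 of its 103 tamoxifen-labelled cells held 85.8% of these genes' UMIs. In state 5 only Iigp1 was called, from 4 cells. In state 2 the sum went the other way, from 316 to 254 CPM, and Iigp1 (18.2 and 2.88 CPM) and Lgals3bp (17.9 and 7.41 CPM) were called lower. After depletion the sum in state 2 went from 299 to 400 CPM. Before depletion, 168 of the 1030 vehicle-labelled and 181 of the 1031 tamoxifen-labelled epithelial-like cells had a Ptprc UMI, against 30 of 6069 and 45 of 6624 after it. The epithelial-like class also included state 1, led by Chil3, Ccl6, Il1b, Laptm5 and Tyrobp, genes of leukocytes, with 27 and 55 cells before depletion and 0 after it. Without state 1 the summed log2 ratio of the pre-depletion pair was again 0.28 and the count of genes called higher 0. With epithelial cells taken instead as cells with at least 2 UMIs of 5 epithelial genes and none of Ptprc or Pecam1, the count was also 0, and Ifi27 and Ifi27l2b had log2 ratios of 0.56 and -1.81 in this pair.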

How the data were processed

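The authors deposited, for each of the 4 libraries, a matrix of whole-number UMI counts per gene and cell barcode. Cell Ranger 7.0.1 made them per the file headers; the submitters' processing notes name version 7.2.0 and the mm10 build. A further allele of the genotype label is not reported here. The members and lists were chosen with earlier results of these data known. The counts of a barcode were kept at 200 or more genes, at most 20% mitochondrial UMIs and a doublet score of 0.25 or less (Scrublet in scanpy 1.11.5), which removed 116 to 225 barcodes per library as doublets. The 4 libraries were clustered jointly, leaving the members out, on 2000 variable genes and 40 components (Leiden at resolution 1, leidenalg 0.10.2), and epithelial-like cells again into states. Clusters were named from fixed markers.

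UMIs were summed per class and library and divided by the class total to give CPM. With 1 library per group there was no test: intervals are exact Poisson, binomial (Clopper-Pearson) or conditional binomial 95% intervals, and those of a ratio use no pseudocount. The size rule was run on simulated data with independent counts and planted changes larger than the rule asks. That setting lacks genes whose UMIs sit in a few cells, so it does not show how the rule handles them. The rule named members called in both epithelial pairs the same way, in 4 or more of the 7 classes or in 7 or more of the 13 states, the 3 most abundant in epithelial-like cells and the 3 copy pairs, and of other lists Ifnb1, Ifng, Irf1, Cxcl10, Ifitm3, B2m and genes called in both epithelial pairs. A further gene of that rule is not reported here. All others named with values were chosen after these were seen.

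The alternatives covered the pseudocount, the filter, the fold, the scaling (TMM in edgeR 4.0.16, median of ratios in DESeq2 1.42.0), the mean over cells, cell filters, doublets, clustering resolution, a gate per cell, thinning and summed copies. Chosen after seeing the data were the omission of the 5 top cells per gene, of states 0, 1, or 4 and 5, the addition of unnamed cluster 13, and members among the clustering genes. Gene positions are from GENCODE M21 (GRCm38), which matched 32158 of 32289 gene identifiers.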

Additional observations from a re-analysis of the deposited data

How the results depend on the processing

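Isg15 and Ifi27l2a were the genes called higher in 4 or more non-epithelial classes under the main settings and in 14 of the 17 alternatives run for that count. Without a filter on low values 6 were (Isg15, Ifit3, Ifi27l2a, Oas1a, Oas1g and Rtp4), at 1.5-fold 5 (Isg15, Ifi27l2a, Irf7, Zbp1 and Rtp4) and at 4-fold 0. In epithelial-like cells the count of 0 higher genes became 1 (Isg15) in the post-depletion pair with 10 CPM asked of either library and 2 (Isg15 and Rsad2) without a filter. In the pre-depletion pair it became 2 (Ifi27 and Iigp1) at 1.5-fold and 1 (Iigp1) for the mean over cells. No gene was called in 7 or more epithelial states, or in the matching majority where clustering gave other state numbers, in any of the 16 alternatives. The fewer or more genes that a changed filter or fold lets through follow from its construction; the cause of the other shifts was not tested. Of 628 recomputed log2 ratios of single genes, 552 stayed within their counting interval, 76 moved and 0 changed sign past the rule. Scaling moved the median of all genes by over 0.1 in state 0, from -0.27 to -0.06 (TMM) and -0.03 (median of ratios), in state 8, from -0.07 to 0.06 under both, where 1 gene was then called, and in neutrophil-like cells, from 0.05 to -0.06 under the median of ratios.

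The share of epithelial-like cells with at least 2 UMIs of the list, in the order vehicle before and after depletion and tamoxifen before and after it, was 53.1, 54.2, 58.4 and 58.4% when thinned to 5000 UMIs and 87.7, 88.0, 94.9 and 89.2% without thinning. With at least 1 UMI it was 52.4, 52.8, 55.3 and 55.2%, and with at least 3 UMIs 5.97, 6.99, 8.83 and 9.27%. No paired analysis was possible because each group had 1 library, and no library could be left out. Ifit3, Ifit3b and Oas1g were under the filter in all 7 classes, so no call was possible for them at this depth.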

Other observations

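Some classes entered no comparison above, and their values are given here without calls. Fibroblast-like cells (119 and 85 before depletion) summed to 938 and 1626 CPM over the 42 genes, a log2 ratio of 0.79 (0.72 to 0.87). Isg15 stood at 29.1 and 88.9 CPM there, Bst2 at 74.5 and 188 CPM and Ifi27l2a at 36.2 and 74.8 CPM. The GTPases Gbp2 (29.1 and 54.8 CPM), Gbp7 (18.8 and 38.3 CPM) and Irgm1 (21.6 and 41.8 CPM) also had ratios above 0, as did Gbp3, Igtp and Iigp1. After depletion, 194 and 115 fibroblast-like cells summed to 826 and 984 CPM (0.25, 0.15 to 0.35). Isg15 stood at 29.8 and 42.1 CPM, Ifi27l2a at 24.3 and 63.2 CPM and Gbp2 at 65.4 and 28.1 CPM. Gbp7 was then at 16.8 and 15.6 CPM, Irgm1 at 13.7 and 13.3 CPM and Iigp1 at 133 and 172 CPM.

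Plasmacytoid dendritic cell-like cells (63 and 71), a cell type known for interferon production, had a higher summed level than any of the 7 classes compared, 4161 and 4274 CPM, a log2 ratio of 0.04 (-0.03 to 0.11). Bst2, a known marker of these cells, held 75.1% of the sum at 3290.2 and 3091 CPM. Ifi27l2a stood at 167 and 357 CPM and Isg15 at 16.8 and 28.9 CPM. NK cell-like cells (130 and 90) had Isg15 at 35.8 and 98.9 CPM from 20 and 35 UMIs.

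Endothelial-like cells left after depletion (164 and 120) summed to 1759 and 2345 CPM (0.41, 0.33 to 0.50), with Isg15 at 90.6 and 182 CPM. The 8 epithelial markers summed to 5976 and 1567 CPM in these cells, with vehicle and tamoxifen, and their part in the result was not tested.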
